A study of Mus musculus with 6 samples.

Results

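The Rab family of small GTPases was examined in mouse myeloid progenitors with the fusion oncogene MLL-ENL, with and without LIN28B. Members were the protein-coding genes of the deposited table whose symbol is Rab followed by a number and at most a letter and a digit, which gave 59 of 21933 protein-coding gene IDs. Symbols such as Rab3gap1 or Rab11fip1, which name partners of Rab proteins, and Rab pseudogenes do not meet that rule. RNA was sequenced from granulocyte-monocyte-lymphoid progenitors (GMLPs), which were sorted from bone marrow by the surface proteins Kit, Sca1 and CD48 and by the lack of CD150 and of lineage markers. There were 3 libraries of the genotype MLL-ENL (ME) and 3 of the genotype LIN28B*MLL-ENL (L28BME). The controls thus also carried MLL-ENL, and all cells had spent 3 days in culture with DOX (doxycycline). The labels do not give the strain, the age, what drives the transgenes, or whether replicates were separate animals or cultures. Each p-value therefore measures the spread between these samples alone, and that spread may be technical.

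Levels are in TPM, a unit that divides reads by transcript length and scales each library to the same total, so the depth behind a value is unknown and counting error cannot be computed. Lin28b reached 11.2, 11.7 and 11.9 TPM in the L28BME libraries and was listed at 0 in the others. These values are of the mouse gene model and may not measure an introduced LIN28B. Hmga2, a chromatin protein gene that let-7 microRNAs repress, rose from 7.32 ± 0.622 to 47.3 ± 2.68 TPM; a value with ± is a mean with its SD over the 3 libraries of a group. Of the genes that define the sort, Kit was at 94.1 ± 15.7 TPM in ME against 79.2 ± 8.1 in L28BME and Cd48 at 297 ± 5.29 TPM in ME against 228 ± 2.24 in L28BME, while Slamf1, which encodes CD150, reached at most 0.706 TPM in any library. Ly6a, which encodes Sca1, was low in the cultured cells and was lower in L28BME (10.3, 11.8 and 9.64 TPM in the ME libraries and 3.18, 1.38 and 1.65 in the L28BME libraries).

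Rab proteins are molecular switches of membrane traffic. In the GTP-bound state each marks a particular membrane and recruits effectors that move, tether or fuse vesicles. Exchange factors load GTP, GTPase-activating proteins end the active state, and a prenyl anchor lets GDP dissociation inhibitors carry the protein back to its membrane. In myeloid cells Rab proteins serve the uptake and recycling of receptors, phagosomes and lysosomes, and the building and release of granules.

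The most abundant Rab transcripts of these progenitors were those of the late endosome, the early secretory pathway, granule release and early endosomes. The 5 with the highest mean level were Rab7, Rab1a, Rab44, Rab27a and Rab5c. Together these made up 36.8% of the summed Rab TPM. Rab7, which acts in the fusion of late endosomes with lysosomes, was at 255, 303 and 302 TPM in the ME libraries and 268, 275 and 274 in the L28BME libraries. ME replicate 1 was the lowest of the 6 libraries and the groups overlapped. A processed pseudogene, Rab7-ps1, was listed at 41.1 to 46.5 TPM, so how reads were split between it and Rab7 is uncertain. Rab1a, needed for transport from the endoplasmic reticulum to the Golgi, was at 199.8, 209 and 202 TPM in the ME libraries and 193, 194 and 193 in the L28BME libraries. Its groups did not overlap, and its mean in L28BME differed by -5.22%. Rab44, an unusually large Rab expressed in blood cells, was at 193, 186 and 182 TPM in the ME libraries and 173, 179 and 173 in the L28BME libraries. Rab27a, which docks secretory granules at the plasma membrane, was at 138, 141 and 139.6 TPM in the ME libraries and 137, 150.01 and 139 in the L28BME libraries, and Rab5c, an early endosome Rab, at 149, 142 and 144 TPM in the ME libraries and 137, 130.01 and 137 in the L28BME libraries. In the order of mean levels, the values of Rab27a, Rab5c and Rab2a lay within the spread of each other, whereas Rab7, Rab1a and Rab44 were each above the next gene in every library.

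Of the 59 members, 47 reached 1 TPM in 3 or more libraries and were tested, with mean levels from 0.825 to 279 TPM. The other 12 did not pass that minimum. Rab3a, Rab3b, Rab3c and Rab9b were listed at 0 in all 6 libraries. The highest value in any library was 1.22 TPM for Rab36, 0.839 for Rab6b, 0.542 for Rab42, 0.471 for Rab30, 0.357 for Rab15, 0.319 for Rab39, 0.293 for Rab40b and 0.0643 for Rab39b. The low or unlisted set thus holds 3 of the 4 Rab3 genes, which serve regulated secretion in neurons and glands. The fourth, Rab3d, was at 35.9 ± 0.868 TPM in ME against 32.2 ± 0.464 in L28BME.

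**Figure D1:**
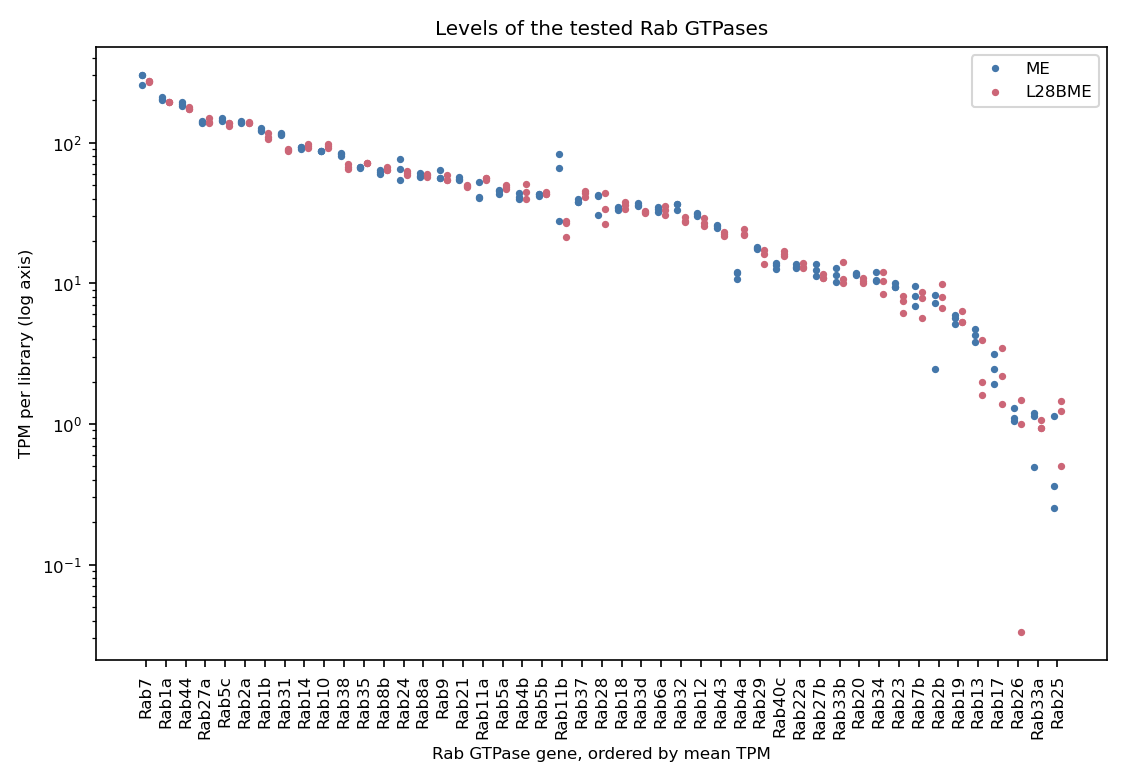
TPM of the 47 tested Rab genes in each of the 6 libraries, on a log axis, ordered by mean level, with ME in blue and L28BME in red. Points of both groups lie close together for most genes from Rab7 down to Rab19, Rab4a stands out as higher in all L28BME libraries, and Rab11b and Rab2b show a wide spread among ME libraries.

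Of the 47 tested Rab genes, 5 were called as different between the genotypes, a share not above that over all genes. In L28BME, 1 tested member, Rab4a, was higher and 4, Rab31, Rab38, Rab32 and Rab21, were lower (limma on the log2 of TPM + 1, with p adjusted by Benjamini and Hochberg over all genes tested and called under 0.05). Without ME replicate 1, whose values stood apart for Rab11a, Rab11b, Rab2b and Rab7, 2 were higher and 5 lower. With all libraries, the 5 called are 10.6% of the 47. Over all 13348 genes tested, 14.9% were called, 8.28% as higher and 6.6% as lower, and over the 10956 protein-coding genes tested 16.8% were called. The share called in either direction among Rab genes, with all libraries, was thus not above the background. The groups did not overlap for 22 members, 8 higher and 14 lower, or 46.8% of those tested. Over all genes this held for 36.7%, with 19.4% higher and 17.4% lower, and over protein-coding genes for 39.9%. Differences were small: the median log2 fold change was -0.071 and the median absolute one 0.12, against 0.0033 and 0.14 over all genes. For 26 of the 47 the means differed by under 10%. The called members had mean levels from 17.2 TPM (Rab4a) to 102 TPM (Rab31), and among them only Rab4a differed by more than 1.5-fold (1.98-fold). Of the uncalled members, Rab11b, Rab13 and Rab25 also did, with ratios of means of 0.433, 0.59 and 1.8, but their groups overlapped. The summed TPM of the family was 2542, 2639.8 and 2666 in ME and 2502, 2515 and 2477 in L28BME. These groups did not overlap (exact two-sided permutation test p = 0.1, the smallest that 3 against 3 libraries allow).

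**Figure D2:**
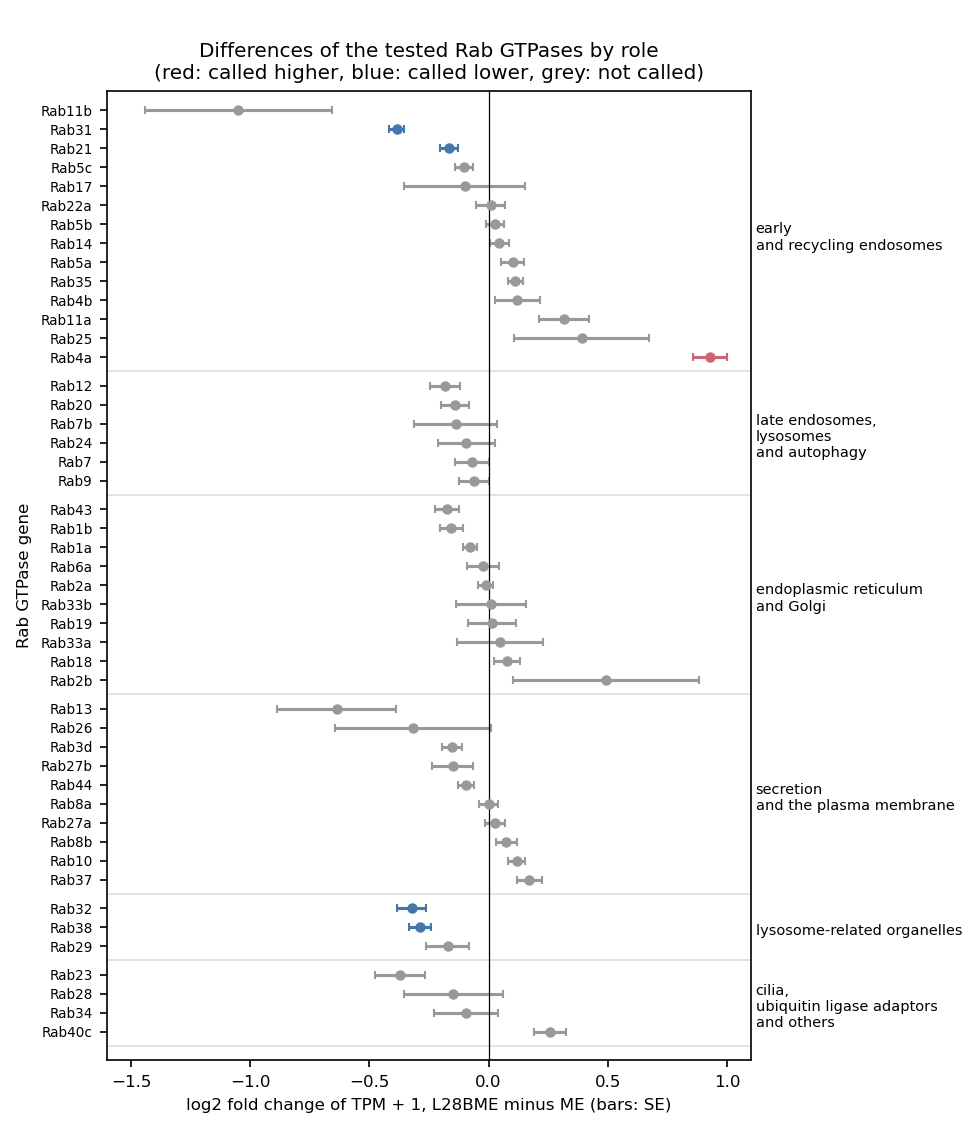
Log2 fold change of TPM + 1 (L28BME minus ME, horizontal axis, bars are the SE of limma) for each tested Rab gene, grouped by the membrane its protein is best known for. Rab4a at 0.93 is the red point, the 4 genes called lower are blue, and wide bars mark genes whose replicates disagree, such as Rab11b, Rab2b and Rab13.

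Of 14 tested Rabs of early and recycling endosomes, 1 was called higher and 2 lower, or 21.4% beside 14.9% over all genes, and 1 of these calls, that of Rab21, did not hold without single libraries. Rab4a (ENSMUSG00000019478, chromosome 8, 123805985 to 123835287 on the plus strand of GRCm38), whose protein returns receptors from early endosomes to the cell surface by the fast route, was at 10.7, 12.02 and 11.8 TPM in the ME libraries and 22.5, 24.2 and 21.9 in the L28BME libraries. Every L28BME library was above every ME library, and the ratio of means was 1.98 (log2 fold change 0.93, SE 0.071, limma adjusted p = 0.00101). Its close relative Rab4b, which acts on the same membranes, was at 39.5, 40.7 and 43.8 TPM in the ME libraries and 39.9, 50.99 and 44.8 in the L28BME libraries, with overlapping groups (log2 fold change 0.12, limma adjusted p = 0.453). It shares 65% of its exonic bases with the gene model Gm21983 on the same strand, which was at or near 0. Another 4.5% are shared with Mir3101 on the same strand, which was listed at 13.1, 0.276 and 0 TPM in the ME libraries and 5.73, 13.9 and 0.204 in the L28BME libraries. How reads were split between Rab4b and Mir3101 is uncertain. Rab31 (ENSMUSG00000056515, chromosome 17, 65651729 to 65772752 on the minus strand), which moves cargo between the trans-Golgi network and endosomes, was at 116, 114 and 118 TPM in the ME libraries and 89.9, 88.01 and 87.1 in the L28BME libraries. Its mean fell by 23.7%, with a coefficient of variation of 1.63% in ME and 1.64% in L28BME (log2 fold change -0.39, SE 0.032, limma adjusted p = 0.0013). Rab22a, the nearest relative of Rab31, was at 13.2 ± 0.375 TPM in ME against 13.3 ± 0.599 in L28BME (log2 fold change 0.0088, limma adjusted p = 0.945). Rab21 (ENSMUSG00000020132, chromosome 10, 115287084 to 115315594 on the minus strand), which carries integrins through early endosomes, was at 56.4, 54.3 and 54.7 TPM in the ME libraries and 50.03, 48.7 and 48.6 in the L28BME libraries. Its mean fell by 10.9% (log2 fold change -0.16, SE 0.038, limma adjusted p = 0.037). The groups of Rab21 did not overlap, but its call was lost without any 1 of the 6 libraries (limma adjusted p = 0.0771 to 0.104). The calls of Rab4a and Rab31 held without any 1 library. None of Rab4a, Rab31 and Rab21 shares exonic bases with another gene model of GENCODE M21.

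**Figure D3:**
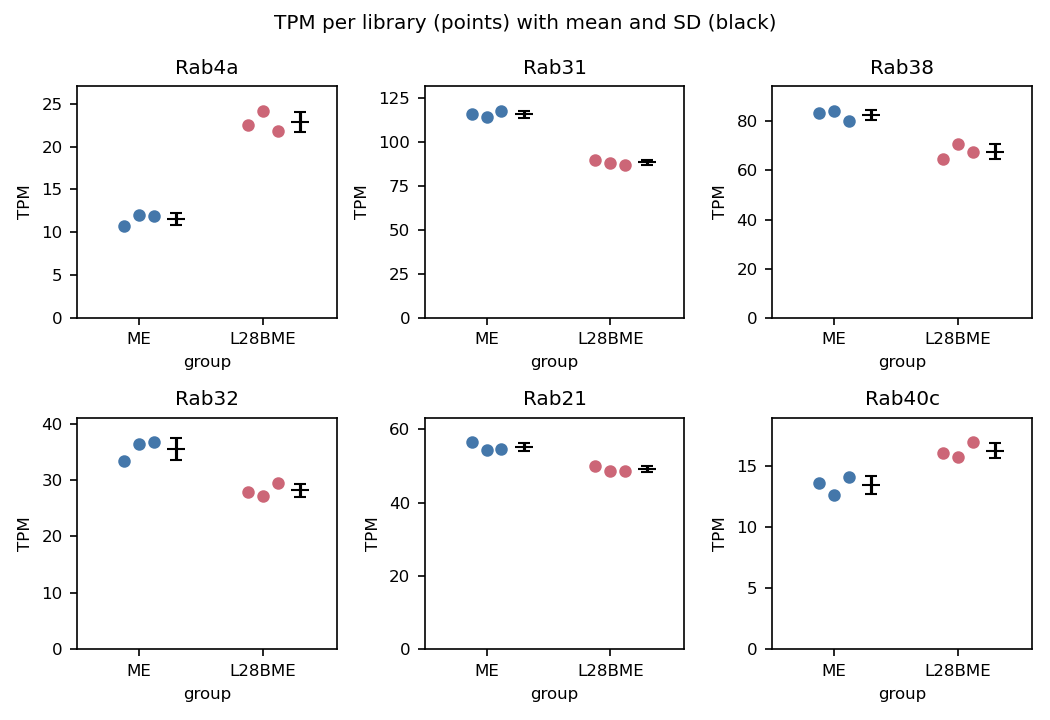
TPM of the 5 called Rab genes and of Rab40c in each library (points), with the mean and SD of 3 libraries beside them in black; axes start at 0. The groups do not overlap in any of the 6 panels, and the ratio of means is largest for Rab4a.

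The core early endosome Rabs, which drive fusion of incoming vesicles, did not pass the test. Rab5a was at 44.9 ± 1.4 TPM in ME against 48.2 ± 1.66 in L28BME (log2 fold change 0.10, limma adjusted p = 0.212), Rab5b at 42.6 ± 0.641 TPM in ME against 43.4 ± 0.827 in L28BME (log2 fold change 0.027, limma adjusted p = 0.693) and Rab5c at 145 ± 3.73 TPM in ME against 135 ± 4.2 in L28BME (log2 fold change -0.10, limma adjusted p = 0.132). Rab14, of endosome and Golgi transport, was at 91.6 ± 1.27 TPM in ME against 94.6 ± 3.53 in L28BME. Rab35, of recycling to the plasma membrane, was at 65.7, 66.6 and 66.8 TPM in the ME libraries and 71.8, 71.7 and 71.9 in the L28BME libraries, with no overlap between groups and a difference of 8.23% (log2 fold change 0.11, limma adjusted p = 0.0669). Rab11a and Rab11b, the slow recycling Rabs, were split among the ME libraries. Rab11a was at 52.6, 40.99 and 40.1 TPM in the ME libraries and 54.1, 56.3 and 55.7 in the L28BME libraries, and Rab11b was at 27.6, 65.7 and 82.2 TPM in the ME libraries and 27.7, 21.3 and 26.9 in the L28BME libraries. ME replicate 1 was close to the L28BME libraries for both genes, whereas ME replicates 2 and 3 were lower for Rab11a and higher for Rab11b. Rab11a shares exonic bases with Gm47308 on the same strand, which was listed at 60.5 to 80.2 TPM. Neither gene passed with all libraries (limma adjusted p = 0.106 and 0.138). Without ME replicate 1 both passed (limma adjusted p = 0.0097 and 0.00935). The pseudogene Rab11b-ps2 was listed at 36.8 to 43.3 TPM, and Rab11b shares exonic bases with Gm17251 on the opposite strand, so the division of reads is uncertain. Rab17 and Rab25, Rabs of epithelial recycling, were low, at 2.5 ± 0.602 TPM in ME against 2.34 ± 1.03 in L28BME and at 0.586 ± 0.488 TPM in ME against 1.06 ± 0.498 in L28BME.

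All 6 tested Rabs of late endosomes, lysosomes and autophagy had a negative log2 fold change and none was called. The sign rested on single libraries for Rab24, at 0.025 without ME replicate 3, and for Rab7b, at 0.0197 without L28BME replicate 1. The median of these 6 was -0.12, where all tested Rab genes had a median of -0.071 and all genes tested 0.0033. Positive log2 fold changes were held by 42.6% of tested Rab genes and by 50.6% of all genes tested. Rab12, which sends receptors such as that of transferrin to lysosomes, was at 31.5, 30.2 and 31.2 TPM in the ME libraries and 29.3, 25.3 and 27.01 in the L28BME libraries, with no overlap (log2 fold change -0.18, limma adjusted p = 0.118). Rab20, found on phagosomes, was at 11.5, 11.5 and 11.8 TPM in the ME libraries and 10.8, 10.1 and 10.4 in the L28BME libraries, also with no overlap (log2 fold change -0.14, limma adjusted p = 0.182). Rab9, of transport from late endosomes to the trans-Golgi network, was at 58.4 ± 4.29 TPM in ME against 55.9 ± 2.44 in L28BME and Rab7b at 8.18 ± 1.31 TPM in ME against 7.39 ± 1.55 in L28BME. Rab7 passed only without ME replicate 1 (limma adjusted p = 0.0446), against 0.559 with all libraries. Rab24, linked to autophagy, was at 54.6, 65.1 and 76.6 TPM in the ME libraries and 62.5, 60.8 and 58.7 in the L28BME libraries, so ME libraries spread on both sides of L28BME. Of its exonic bases, 62.4% lie within Prelid1 on the opposite strand. Prelid1 was listed at 218 to 247 TPM, and whether quantification used strand is not given in the sources used here.

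Among 10 tested Rabs of the endoplasmic reticulum and Golgi none was called, and 5 had a positive and 5 a negative log2 fold change. Rab1b, the partner of Rab1a in export from the endoplasmic reticulum, was at 121, 123 and 126 TPM in the ME libraries and 106, 109 and 117 in the L28BME libraries, with every L28BME library below ME (log2 fold change -0.16, limma adjusted p = 0.0856). It passed with a GC trend removed (limma adjusted p = 0.0328) and without L28BME replicate 3 (limma adjusted p = 0.0438). Rab43, a Golgi Rab, was at 24.6, 25.95 and 25.5 TPM in the ME libraries and 21.6, 22.4 and 23.003 in the L28BME libraries, again with no overlap (log2 fold change -0.17, limma adjusted p = 0.0753). It shares 75.4% of its exonic bases with the gene model Gm45140 on the same strand, which was listed at up to 1.18 TPM. Rab2a, which acts at the Golgi, was at 140.4 ± 3.19 TPM in ME against 139 ± 1.06 in L28BME, Rab6a, of transport within and back from the Golgi, at 33.6 ± 1.6 TPM in ME against 33.1 ± 2.21 in L28BME, and Rab18, of the endoplasmic reticulum and lipid droplets, at 33.9 ± 0.767 TPM in ME against 35.8 ± 1.94 in L28BME. Rab6a shares 19% of its exonic bases with Mrpl48 on the opposite strand. Rab2b was at 2.45, 7.29 and 8.27 TPM in the ME libraries and 7.97, 9.8 and 6.61 in the L28BME libraries, with ME replicate 1 below all other libraries. Much of Rab2b, 59.3% of its exonic bases, overlaps Gm43766 on the opposite strand, which was at or near 0. Rab19, Rab33a and Rab33b had means of 0.942 to 11.6 TPM, and their limma adjusted p was 0.889 to 0.975.

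Rabs of secretion and the plasma membrane were also uncalled in all 10 tested members. Rab27a and Rab27b, which bring granules to the cell surface, differed widely in level: Rab27a was at 139.5 ± 1.81 TPM in ME against 142 ± 6.83 in L28BME and Rab27b at 12.5 ± 1.25 TPM in ME against 11.1 ± 0.417 in L28BME (log2 fold change 0.026, limma adjusted p = 0.73 for Rab27a; log2 fold change -0.15, limma adjusted p = 0.303 for Rab27b). Rab3d, of secretory granules, was at 35.2, 36.9 and 35.7 TPM in the ME libraries and 32.6, 31.7 and 32.2 in the L28BME libraries, with no overlap (log2 fold change -0.15, limma adjusted p = 0.0626). It passed with a GC trend removed (limma adjusted p = 0.0416) and among protein-coding genes alone (limma adjusted p = 0.04996). Rab44 did not overlap between groups and its mean in L28BME differed by -6.38% (log2 fold change -0.094, limma adjusted p = 0.136). Rab37, linked to mast cell granules, was at 37.5, 39.7 and 37.97 TPM in the ME libraries and 41.2, 45.2 and 43.8 in the L28BME libraries, all L28BME libraries above ME (log2 fold change 0.17, limma adjusted p = 0.0798). Rab10, of transport from the Golgi to the plasma membrane, was at 87.8, 87.7 and 86.8 TPM in the ME libraries and 98.3, 94.8 and 91.9 in the L28BME libraries (log2 fold change 0.12, limma adjusted p = 0.089). Its relatives Rab8a and Rab8b were at 58.4 ± 1.89 TPM in ME against 58.4 ± 1.21 in L28BME and at 61.6 ± 2.12 TPM in ME against 64.9 ± 1.97 in L28BME. Rab13, of cell junctions, was at 3.81, 4.28 and 4.72 TPM in the ME libraries and 1.61, 3.97 and 1.98 in the L28BME libraries, and passed only without L28BME replicate 2 (limma adjusted p = 0.0199). Rab26 was low, at 1.3, 1.04 and 1.11 TPM in the ME libraries and 1.001, 0.0329 and 1.47 in the L28BME libraries, and part of its exons lie within Traf7 on the same strand.

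Of 3 tested Rabs of lysosome-related organelles, such as melanosomes and the dense granules of platelets, 2 were called lower in L28BME, Rab38 and Rab32, which deliver cargo to these organelles, and Rab29 was not called. Over all genes 6.6% were called lower. The role lists were chosen with earlier results of these data known, so a count among 3 genes depends on how the list was cut. Rab27a and Rab27b, which bring granules to the cell surface, were listed under secretion and were not called. Rab38 (ENSMUSG00000030559, chromosome 7, 88430273 to 88491572 on the plus strand) was at 83.4, 84.3 and 80.2 TPM in the ME libraries and 64.6, 70.7 and 67.4 in the L28BME libraries. Its mean fell by 18.2% (log2 fold change -0.29, SE 0.046, limma adjusted p = 0.0123). Rab32 (ENSMUSG00000019832, chromosome 10, 10545002 to 10558265 on the minus strand) was at 33.4, 36.5 and 36.7 TPM in the ME libraries and 27.8, 27.2 and 29.5 in the L28BME libraries. Its mean fell by 20.7% (log2 fold change -0.32, SE 0.059, limma adjusted p = 0.0188). For both genes every L28BME library was below every ME library. The call of Rab38 was lost without ME replicate 2 (limma adjusted p = 0.0501). That of Rab32 was lost without ME replicate 2 or 3 or L28BME replicate 1 or 2 (limma adjusted p = 0.0606 to 0.068). With these libraries left out 1 at a time, the members called lower numbered 1 when ME replicate 2 was left out, 2 for ME replicate 3, 2 for L28BME replicate 1 and 3 for L28BME replicate 2. Rab29, a relative that binds the kinase LRRK2, was at 18.1, 17.5 and 17.8 TPM in the ME libraries and 13.8, 16.3 and 17.3 in the L28BME libraries, with no overlap (log2 fold change -0.17, limma adjusted p = 0.265).

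Markers of other cell types that the culture could hold moved with genotype too. The shares called over all genes tested were 8.28% higher and 6.6% lower. Of 11 tested megakaryocyte and platelet markers, 7 were higher and 0 lower. The 14 genes of that list summed to 249 to 252 TPM in ME against 357 to 369 in L28BME. Without Plek, its largest member, the list summed to 123 to 128 TPM in ME against 198 to 215 in L28BME. Of its defining markers, Treml1 was at 0 in every library, and Tubb1 and Gp6 reached at most 0.223 and 0.186 TPM. Of 8 tested mast cell and basophil markers, 0 were higher and 3, Mcpt8, Gzmb and Cpa3, were lower. Positive log2 fold changes were found for 2 of the 8, Gata2 at 0.27 and Hdc at 0.11. The 11 genes of that list summed to 601 to 637 TPM in ME against 521 to 538 in L28BME. Tpsab1 was at 0, and Tpsb2 and Cma1 reached at most 0.335 and 0.302 TPM. Of 9 tested neutrophil granule markers 5 were higher and 1 lower. The 11 genes of that list summed to 236 to 248 TPM in ME against 556 to 584 in L28BME. S100a8 and S100a9 made up most of that sum. S100a8 was at 93.8 ± 1.71 TPM in ME against 241 ± 0.423 in L28BME, and S100a9 at 85.7 ± 4.89 against 237 ± 9.32. Ngp, Ltf and Mmp8 were also called higher and Cd177 lower, while Camp, Cxcr2 and Lcn2 were not called. Retnlg and Mmp9 reached at most 0.259 and 0.482 TPM. Of 8 tested monocyte and macrophage markers 3 were higher and 3 lower, with a sum over 10 genes of 410.4 to 438 TPM in ME against 329 to 347 in L28BME and C1qa at 0. The lower sum of that list came from Ly6c2, at 289 ± 12.2 TPM in ME against 190.4 ± 6.85 in L28BME; the other 9 genes summed to 135 to 139.8 TPM in ME against 144 to 151 in L28BME. Of 9 markers of mature lineages that the sort removes, only Itgam, of myeloid cells, was high enough to test, and it fell from 41.2 ± 2.77 to 12.9 ± 5.83 TPM (log2 fold change -1.70, limma adjusted p = 0.0208). These 9 summed to 38.8 to 44.6 TPM in ME against 8.38 to 20.03 in L28BME, with Cd3e and Cd8a at 0. The lower sum came from Itgam: the other 8 genes summed to 0.736 to 1.11 TPM in ME against 1.62 to 1.84 in L28BME. The part of these cell types in the Rab differences was not tested. In bulk RNA, fewer cells of a type and less RNA per cell cannot be told apart.

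Of 4 tested Rabs with roles in cilia, ubiquitin ligases or elsewhere, none was called. Rab40c (ENSMUSG00000025730, chromosome 17, 25882114 to 25919727 on the minus strand), whose protein has a SOCS box and joins a Cullin-5 ubiquitin ligase, was at 13.6, 12.6 and 14.03 TPM in the ME libraries and 16.03, 15.7 and 16.9 in the L28BME libraries. All L28BME libraries were above all ME libraries, a difference of 20.95%, and it lay at the threshold (log2 fold change 0.26, SE 0.065, limma adjusted p = 0.05005). It passed under 8 of 13 alternatives that kept all libraries, with limma adjusted p = 0.0387 to 0.0493, and under none of the 6 that left out 1 library. Rab23, an antagonist of Hedgehog signalling, was at 9.96, 9.42 and 9.38 TPM in the ME libraries and 7.5, 8.06 and 6.14 in the L28BME libraries, with no overlap (log2 fold change -0.37, limma adjusted p = 0.0695). Rab28 was at 30.6, 41.7 and 42.1 TPM in the ME libraries and 43.96, 33.7 and 26.4 in the L28BME libraries, and Rab34 at 10.96 ± 0.933 TPM in ME against 10.3 ± 1.77 in L28BME. Both act in cilia, and their groups overlapped.

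LIN28B blocks the maturation of let-7 microRNAs, so the 3′ UTRs of Rab genes were read for let-7 seed matches, and the matches in tested members are printed here. The 9 mature mouse sequences of the family in RefSeq (GRCm38.p6) that share the let-7a seed, bases 2 to 8, include let-7a and miR-98, shown with the seed in capitals.
mmu-let-7a-5p: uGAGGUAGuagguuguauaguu
mmu-miR-98-5p: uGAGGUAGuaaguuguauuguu
A match was CTACCTC or TACCTCA on the sense strand of the longest annotated 3′ UTR of a protein-coding transcript in GENCODE M21, and overlapping copies of both motifs were counted once. Of the 59 members, 9 held a match, with 10 matches in all. Of these, 5 were tested: Rab40c, Rab37, Rab8b, Rab7b and Rab11b, the last with 2 matches. Rab15, Rab30, Rab3c and Rab6b also held 1 each but were too low to test. The sequences of GRCm38 around the matches, on the transcript strand with the match in capitals, are as follows.
Rab40c chr17:25882539-25882568, minus strand: tggtgcttaactCTACCTCctgccctcagg
Rab37 chr11:115161273-115161302, plus strand: gagtctgcttggCTACCTCtggctttccca
Rab8b chr9:66844806-66844835, minus strand: tttcttttattaTACCTCAtttagctaact
Rab7b chr1:131712970-131712999, plus strand: tggtcaggttcaTACCTCAtgccttccaca
Rab11b chr17:33745779-33745808, minus strand: gctcagacttgtTACCTCAtactttggagg
Rab11b chr17:33744153-33744182, minus strand: atctacctgcctCTACCTCctgaatgctgg
Matches were held by 10.6% of tested Rab genes, against 17.04% of 10866 tested protein-coding genes with a 3′ UTR, whose UTRs had a median length of 1155 bases against 1496 for Rab genes. None of the 5 was called, against 1 higher and 4 lower among the 42 tested Rab genes with no match. Over all tested protein-coding genes, 15.5% of those with a match were called higher and 5.89% lower, against 8.37% and 7.59% of those without. Log2 fold changes were 0.26 for Rab40c, 0.17 for Rab37, 0.074 for Rab8b, -0.14 for Rab7b and -1.05 for Rab11b. The L28BME libraries were above all ME libraries for Rab40c, Rab37 and Rab8b, and the groups overlapped for Rab7b and Rab11b. The median was 0.074 with and -0.074 without a match among tested Rab genes, and 0.0603 and -0.0017 among all tested protein-coding genes. Rab4a, the one member called higher, held no match in this UTR. A match is a run of letters and was not tested as a site.

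Levels of close relatives were compared as the share of 1 gene in the sum of a pair, and for 5 of 12 pairs the shares of the groups did not overlap. The share of Rab4a in the sum of Rab4a and Rab4b was 21.3%, 22.8% and 21.2% in ME and 36.1%, 32.2% and 32.8% in L28BME. Rab4b was thus the more abundant of the pair in every library, and the share of Rab4a was higher in all L28BME libraries. The share of Rab22a in Rab22a and Rab31 was 10.2%, 10.1% and 10.4% in ME and 12.6%, 12.8% and 13.8% in L28BME, again without overlap. The share of Rab5a in Rab5a and Rab5c was 23.6%, 24.2% and 23.1% in ME and 26.1%, 27.7% and 25.3% in L28BME, and that in Rab5a and Rab5b was 51.7%, 51.4% and 50.9% in ME and 52.2%, 53.8% and 51.9% in L28BME. The share of Rab32 in Rab32 and Rab38, which both fell, was 28.6%, 30.2% and 31.4% in ME and 30.1%, 27.8% and 30.5% in L28BME, with overlapping groups. The share of Rab11a in Rab11a and Rab11b was 65.6%, 38.4% and 32.8% in ME and 66.2%, 72.5% and 67.4% in L28BME, and ME replicate 1 was only just below the L28BME libraries. With 3 against 3 libraries the exact two-sided permutation test cannot go below p = 0.1. That value was reached by the shares in Rab4a and Rab4b, Rab5a and Rab5b, Rab5a and Rab5c, Rab11a and Rab11b, and Rab22a and Rab31, as by the summed TPM. Over the 13 quantities compared, the Benjamini-Hochberg adjusted value of these exact tests was 0.217. For the pairs of Rab1, Rab2, Rab7, Rab8, Rab27 and Rab33 and for Rab32 with Rab38, the exact p was 0.2 to 0.8.

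**Figure D4:**
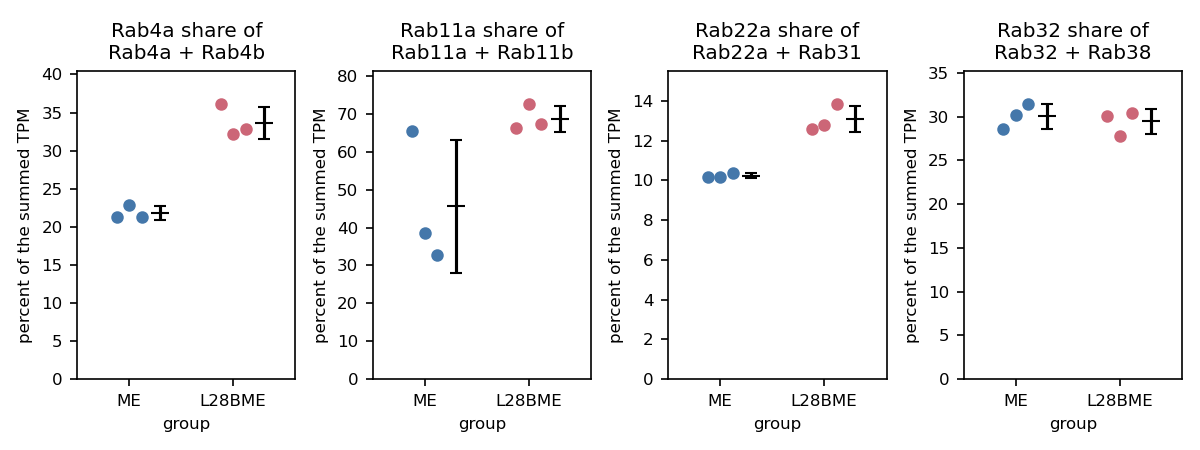
Share of 1 member in the summed TPM of a pair of related Rab genes, in percent, for each library (points), with the mean and SD of 3 libraries in black; axes start at 0. Rab4a and Rab22a take a larger share in all L28BME libraries, ME replicate 1 is apart from the other ME libraries for Rab11a, and the pair of Rab32 and Rab38 overlaps.

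The genes that load, switch off, carry and read Rab proteins were called about as often as all genes. Of 150 tested, 12 were higher and 11 lower, which is 15.3% beside 14.9% over all genes, and their median log2 fold change was 0.0033. These counts were 5 to 7 in each direction without any 1 of the 6 libraries. Of 9 genes for prenylation and recycling of Rab proteins, 1 was higher and none lower. It was Arl6ip5, a relative of the Rab acceptor Rabac1, which rose from 181 ± 0.929 to 216 ± 3.98 TPM (log2 fold change 0.25, limma adjusted p = 0.00325). The GDP dissociation inhibitor gene Gdi2, the escort proteins Chm and Chml, and the prenyltransferase subunits Rabggta and Rabggtb did not pass (limma adjusted p = 0.326 to 0.891). Gdi2 was at 375 ± 42.7 TPM in ME against 337 ± 17.6 in L28BME.

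Of 48 tested exchange factor genes, 3 were higher and 4 lower, or 14.6% beside 14.9% over all genes. Rgp1, which with Ric1 activates Rab6, was at 33.6, 34.3 and 34.8 TPM in the ME libraries and 63.9, 62.9 and 52.2 in the L28BME libraries, well above ME in every L28BME library (log2 fold change 0.78, SE 0.083, limma adjusted p = 0.00302). Rin3, an exchange factor for Rab5 and its relatives, Rab31 among them, fell from 89.6 ± 1.84 to 73.3 ± 3.71 TPM (log2 fold change -0.29, limma adjusted p = 0.0125). Of the DENN domain genes, Dennd1c rose from 21.9 ± 0.931 to 27.9 ± 1.22 TPM (log2 fold change 0.33, limma adjusted p = 0.0153). Dennd5b fell from 3.24 ± 0.767 to 1.24 ± 0.171 TPM (log2 fold change -0.91, limma adjusted p = 0.0148). The call of Dennd1c was lost without ME replicate 1 or 2 (limma adjusted p = 0.0501 and 0.0545), and that of Dennd5b without L28BME replicate 2 or 3 (limma adjusted p = 0.0507 and 0.0532). The other called genes were Rab3ip, higher, and Als2cl and Rin1, lower.

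Of 36 tested GTPase-activating protein genes, 4 were higher and 4 lower, or 22.2% beside 14.9% over all genes. Tbc1d16, which acts on Rab4a, was at 8.42, 6.57 and 7.92 TPM in the ME libraries and 16.1, 14.98 and 15.1 in the L28BME libraries (log2 fold change 0.93, SE 0.098, limma adjusted p = 0.00296). It was thus higher in every L28BME library, as Rab4a was. Rabgap1l rose from 65.5 ± 3.03 to 88.4 ± 2.06 TPM, and Rabgap1 and Grtp1 were also called higher. Tbc1d2b and Tbc1d2, related genes, the second of which inactivates Rab7, both fell. Tbc1d2b went from 37.7 ± 0.343 to 29.9 ± 0.487 TPM and Tbc1d2 from 6.62 ± 0.289 to 4.81 ± 0.0449 TPM. The call of Tbc1d2 was lost without any 1 library other than ME replicate 1 (limma adjusted p = 0.0575 to 0.0725). Tbc1d8b and Evi5 were the other called lower genes.

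Of 57 tested effector genes, 4 were higher and 3 lower, or 12.3% beside 14.9% over all genes. Ocrl, an inositol phosphatase bound by several Rab proteins, was at 47.6, 48.2 and 47.6 TPM in the ME libraries and 34.6, 33.1 and 32.4 in the L28BME libraries (log2 fold change -0.51, SE 0.043, limma adjusted p = 0.00136). Uso1, the Rab1 effector that tethers vesicles at the Golgi, fell from 104 ± 1.33 to 88.1 ± 0.675 TPM (log2 fold change -0.24, limma adjusted p = 0.00525). Optn, an effector of Rab8, rose from 8.77 ± 0.422 to 11.6 ± 0.588 TPM, and Sytl1, which binds Rab27, rose from 12.7 ± 0.893 to 16.3 ± 0.973 TPM. The call of Optn was lost without any 1 library other than ME replicate 1 (limma adjusted p = 0.0573 to 0.0763) and that of Sytl1 without any 1 of the 6 (limma adjusted p = 0.0636 to 0.0995). Rilpl1 and Rilpl2 were also called higher and Exoc6b lower.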

How the data were processed

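RNA from cultured GMLPs was purified with a single-cell kit and made into libraries with a stranded mRNA kit, per the labels' protocols. The authors deposited 1 TPM value per gene ID and library; the submitters' processing notes name GRCm38, bcl2fastq, HISAT2, StringTie and DESeq2. The sources used here do not give versions or whether strand was used. A column of percent GC per gene, deposited with the TPM values, served for the GC trend. Columns summed to 999919 to 999996 TPM, and depth is unknown.

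The 13348 gene IDs that reached 1 TPM in 3 or more of the 6 libraries were analysed as log2(TPM + 1). L28BME was compared with ME in R 4.3.3 by limma 3.58.1 (trend option), two-sided, with Benjamini-Hochberg adjustment over all genes tested, and called at an adjusted p under 0.05. Fold changes on this scale understate changes of low genes. The fit was also run on simulated data, but the outcome is not given here and is not used for any result. Sums and shares were compared by exact permutation over libraries. Positions, exon overlaps and 3′ UTRs came from GENCODE M21 (GRCm38). Members, role lists, regulator lists and tests were chosen with earlier results of these data known. Genes named are all members, and in each regulator list up to 4 called genes with the smallest p; further called genes named without values were chosen after their values were seen. Alternatives were other pseudocounts, minimum levels, scalings and fit options, removal of a GC trend, summing of overlapping gene models, a term for replicate number, and leaving out each library. Figures were drawn with matplotlib 3.10.9 in Python 3.11.15.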

Additional observations from a re-analysis of the deposited data

How the results depend on the processing

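The calls of Rab4a and Rab31 held under all 19 alternatives. The number of Rab genes called higher was 2, with Rab40c, at a pseudocount of 0.1 or 0.5, with a minimum of 5 TPM, with mitochondrial genes removed, among protein-coding genes only, without an intensity trend, with a GC trend removed and with overlapping gene models summed. It was 1 to 2 when 1 library was left out, and those called lower numbered 1 to 5. For the regulators and effectors, 5 to 7 were called higher and 5 to 7 lower when 1 library was left out, and 7 and 6 with no filter on low values, against 12 and 11. Over all genes, 617 to 693 were called higher and 461 to 582 lower when 1 library was left out, against 1105 and 881. With replicate number as a block, 1 Rab gene was called higher and 2 lower, Rab32 (limma adjusted p = 0.0549) and Rab21 (limma adjusted p = 0.0924) not among them, and 5 regulators and effectors were called in each direction. Of those named with values, Rin3, Dennd5b, Tbc1d2, Optn and Sytl1 were not called in that fit (limma adjusted p = 0.0531 to 0.0757). The labels do not say that equal numbers pair samples, and the deviations of same-numbered libraries from their group means had correlations across genes of -0.032, -0.074 and -0.052. Rab21 was also not called without an intensity trend (limma adjusted p = 0.0605). The difference in summed Rab TPM was -155 to -92.97 when 1 library was left out and -112 with mitochondrial genes removed, against -118. Among 14 uncalled members the log2 fold change turned sign in some alternatives. Its range over libraries left out 1 at a time was -0.33 to 0.12 for Rab17, -0.0604 to 0.052 for Rab19, -0.22 to 0.025 for Rab24, -0.58 to 0.052 for Rab26, -0.33 to 0.029 for Rab28, -0.029 to 0.00303 for Rab2a, -0.20 to 0.027 for Rab34, -0.068 to 0.026 for Rab6a, -0.25 to 0.0197 for Rab7b, -0.021 to 0.024 for Rab8a, -0.026 to 0.0296 for Rab22a, -0.013 to 0.049 for Rab27a, -0.13 to 0.15 for Rab33a and -0.13 to 0.099 for Rab33b. Other settings gave -1.77e-04 for Rab19 with quantile normalization, -5.85e-04 for Rab33b with quantile normalization, -0.00448 for Rab8a with median-of-ratios scaling, -0.018 for Rab8a with quantile normalization and -0.00397 for Rab8a with a GC trend removed. The cause of these shifts was not tested. Depth is unknown, so the precision of members near 1 TPM cannot be given.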

Other observations

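Outside the protein-coding members, the antisense RNA gene Rab26os was at 32.1, 37.8 and 32.3 TPM in the ME libraries and 24.6, 23.2 and 22.1 in the L28BME libraries, with every L28BME library below ME (log2 fold change -0.53, SE 0.0805, limma adjusted p = 0.00988). Its level was above that of Rab26 itself in each library. Rab10os, which shares exonic bases with Rab10 on the opposite strand, was at 14.1 ± 0.17 TPM in ME against 14.97 ± 1.92 in L28BME (log2 fold change 0.074, limma adjusted p = 0.661). Without knowledge of the strand setting, reads of Rab10 and Rab10os cannot be told apart where they overlap.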
